A study of Mus musculus with 8 samples.

Results

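The 4 genes described here are the 3 fibrinogen chain genes Fga, Fgb and Fgg and the related gene Fgl1, followed across 3 induced hepatocyte-like cell lines, primary hepatocytes and embryonic fibroblasts of the mouse. They are 4 of the 17097 genes that a probe set with a single gene symbol measured, and 4 of the 28898 such probe sets. Each had 1 such probe set (1424279_PM_at for Fga, 1428079_PM_at for Fgb, 1416025_PM_at for Fgg and 1424599_PM_at for Fgl1), and no probe set with several symbols held any of them. The genes were chosen with their values on these arrays known, so their levels and differences are a description and carry no test.

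Total RNA of each of 8 samples was hybridised to 1 Affymetrix perfect-match expression array, and each probe set has a log2 signal, on which a difference of 1 is a doubling. The study asked how established induced hepatocyte-like lines (iHeps) stand to fibroblasts, the cells transduced, and to primary hepatocytes across the transcriptome. The iHep group held 3 lines at passage 10, 1 array each. Line 4a3 had been transduced with Hnf4a and Foxa3, line 4a3CK with Hnf4a, Foxa3, c-Myc and Klf4, and line 4a1CK with Hnf4a, Foxa1, c-Myc and Klf4, in each case by retroviral particles given to fibroblasts. Primary hepatocytes (PH, 3 arrays) came from livers of male C57/B6 mice aged 8 to 10 weeks, taken by collagenase perfusion and then cultured in Hep medium. Mouse embryonic fibroblasts (MEF, 2 arrays) came from C57/B6 embryos at embryonic day 13.5, and the label of MEF 1 adds that head and internal organs had been removed. The iHep lines and the hepatocytes share Hep medium, which for the lines held dexamethasone, nicotinamide, insulin, transferrin, selenium, fibroblast growth factor 4, hepatocyte growth factor and epidermal growth factor. The labels give no strain for the iHep lines and do not say whether a line is 1 clone. The arrays fall into 2 ranges of sample accessions, called accession sets here, one with MEF 2, PH 3 and the 3 lines and the other with MEF 1, PH 1 and PH 2, and what separates them is not stated. The labels also do not say whether arrays of PH or of MEF came from separate animals or cultures, so the p-values given below measure only the spread between these arrays.

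Fibrinogen is the soluble plasma protein that thrombin turns into fibrin, the mesh of a blood clot. Hepatocytes make it from 3 different chains, alpha (Fga), beta (Fgb) and gamma (Fgg), which are joined by disulfide bonds into a hexamer in the endoplasmic reticulum before secretion. The 3 genes lie side by side on chromosome 3 in the order Fgg, Fga, Fgb, with Fgb on the opposite strand, and are known as acute phase genes that interleukin 6 raises in the liver through STAT3 and C/EBP proteins. Fgl1, on chromosome 8, codes for a secreted liver protein with a fibrinogen-like domain that does not form the hexamer, and it is known as a ligand of the T cell receptor LAG3.

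The promoters of the 3 chain genes are shown because the chains share one protein and a cluster, and yet had different levels in the iHep lines. Each runs 5′ to 3′ on the strand of the gene, from 250 bases before its start to 50 bases after it, as RefSeq gives it on GRCm38.p6. Fga lies at chr3:83025903-83026202 on the plus strand, Fgb at chr3:83049814-83050113 on the minus strand and Fgg at chr3:83007474-83007773 on the plus strand. Capitals mark matches to CTGGGAA, an interleukin 6 response element, and to TTGCNNAA, a C/EBP site, searched on both strands.
Fga: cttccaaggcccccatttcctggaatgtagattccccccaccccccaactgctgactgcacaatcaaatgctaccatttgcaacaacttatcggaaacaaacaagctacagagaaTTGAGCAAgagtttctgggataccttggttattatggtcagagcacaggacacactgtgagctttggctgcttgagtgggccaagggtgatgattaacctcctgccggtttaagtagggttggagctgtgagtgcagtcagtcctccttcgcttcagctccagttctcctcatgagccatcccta
Fgb: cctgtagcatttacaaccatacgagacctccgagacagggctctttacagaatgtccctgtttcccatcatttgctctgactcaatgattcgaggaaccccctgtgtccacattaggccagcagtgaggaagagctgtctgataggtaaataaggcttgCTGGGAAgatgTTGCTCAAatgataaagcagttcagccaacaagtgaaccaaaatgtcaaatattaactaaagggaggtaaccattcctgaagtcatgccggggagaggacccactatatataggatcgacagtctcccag
Fgg: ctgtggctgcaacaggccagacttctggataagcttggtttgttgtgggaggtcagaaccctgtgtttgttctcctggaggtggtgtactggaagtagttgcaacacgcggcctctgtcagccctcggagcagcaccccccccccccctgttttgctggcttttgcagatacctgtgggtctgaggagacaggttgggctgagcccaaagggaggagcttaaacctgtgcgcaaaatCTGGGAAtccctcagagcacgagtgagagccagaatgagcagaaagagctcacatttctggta
Fgb held both motifs, CTGGGAA starting 91 bases before the gene start and TTGCTCAA starting 80 bases before it, with no overlap. Fgg held CTGGGAA alone, 13 bases before its start, and Fga held TTGAGCAA alone, the C/EBP motif read on the opposite strand, 135 bases before its start. CTGGGAA is present in 11.1% and TTGCNNAA in 10.8% of 32851 promoters of this length. The forkhead motif TGTTTAC (3.65% of promoters) and the Hnf4a motif CAAAGTCCA (0.475%) had no match in these windows. A match is a description of these letters and does not show that a factor binds there. Of the 4 genes, 3 had an entry, and Fgl1 is only named.

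Among the arrays PH 3 stood apart, with a median signal of 5.06 where the other arrays had 4.23 to 4.45, and 93.2% of genes were higher in PH 3 than in the mean of PH 1 and PH 2. Its nonspecific control median was 3.53, against 2.83 to 3.06 on the other arrays. PH 1 and PH 2 were the most alike, with an SD of gene differences of 0.159, where PH 1 and PH 3 had 0.549 and the 2 MEF arrays 0.57.

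All 4 genes were high in primary hepatocytes and low in fibroblasts, and the iHep lines split them. Fgb reached the hepatocyte level in 4a3 and differed from it by -1.0 on the log2 scale in 4a3CK, and Fgg stood 5.11 above the fibroblast mean in 4a3 and within 0.18 of it in the other lines. Fga stayed within 1.31 of the fibroblast level in every line, and Fgl1 lay under the fibroblast level in every line. In 4a1CK none of the 4 was more than 0.39 above the fibroblast mean. These are levels of RNA in whole cultures, in which fewer cells of a type and less RNA per cell cannot be told apart.

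**Figure D1:**
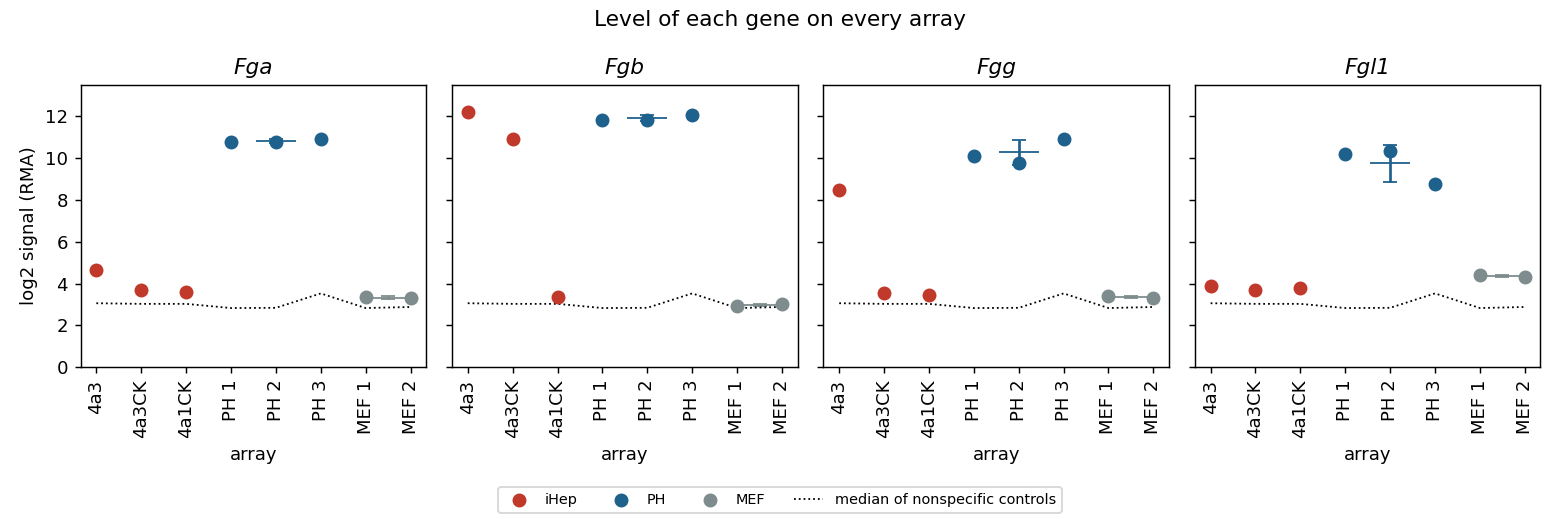
Log2 signal (RMA, vertical axis) of Fga, Fgb, Fgg and Fgl1 on each of the 8 arrays (horizontal axis), with points for arrays, horizontal bars and whiskers for the PH and MEF means ± SD (n = 3 and n = 2), and a dotted line for the median of 23 nonspecific control probe sets. Fgb stands at 12.21 in 4a3 and 10.92 in 4a3CK, and Fgl1 at 3.67 to 3.88 in the 3 lines.

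Fga codes for the alpha chain, from which thrombin cuts fibrinopeptide A. Its log2 signal was 4.64 in 4a3, 3.70 in 4a3CK and 3.60 in 4a1CK, against 10.75, 10.75 and 10.93 in PH and 3.37 and 3.29 in MEF. The 3 lines lay far below every hepatocyte array and just above both fibroblast arrays, with 4a3 the highest of them. The small excess over the MEF mean depended on the scaling. It was 0.37 in 4a3CK and 0.27 in 4a1CK as deposited, and 0.20 and 0.08 with array medians subtracted. The PH mean was 10.81 ± 0.10 (SD, n = 3) and the MEF mean 3.33 ± 0.06 (SD, n = 2), a difference of 7.48 or 178-fold. Against PH, Fga was 72.1-fold lower in 4a3, 138-fold lower in 4a3CK and 148-fold lower in 4a1CK. The distance of 4a3 from MEF, 1.31, was larger than the spread of either replicated group, while 4a3CK and 4a1CK, 0.09 apart, cannot be ordered from 1 array each.

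Fgb codes for the beta chain, whose production is often described as limiting for assembly of the hexamer in human liver cells. Its log2 signal was 12.21 in 4a3, 10.92 in 4a3CK and 3.36 in 4a1CK, against 11.83, 11.83 and 12.08 in PH and 2.93 and 3.01 in MEF. 4a3 stood above the highest hepatocyte array, 4a3CK below the lowest, and 4a1CK near the fibroblasts. The PH mean was 11.92 ± 0.14 (SD, n = 3) and the MEF mean 2.97 ± 0.06 (SD, n = 2), a difference of 8.95 or 494-fold. The log2 difference from PH was 0.29 in 4a3, -1.0 in 4a3CK and -8.56 in 4a1CK, the last a 377-fold lower level. Relative to MEF, Fgb was 604-fold higher in 4a3 and 247-fold higher in 4a3CK, and 0.39 higher on the log2 scale in 4a1CK. With the accession sets kept apart, 4a3 was 0.13 above PH 3 and 0.37 above the mean of PH 1 and PH 2. After quantile normalization 4a3 was 0.05 above the PH mean, against 0.29 as deposited, so its excess over PH depended on the scaling.

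Fgg codes for the gamma chain, which carries sites for platelet integrin and for crosslinking by factor XIII. Its log2 signal was 8.47 in 4a3, 3.54 in 4a3CK and 3.46 in 4a1CK, against 10.10, 9.79 and 10.92 in PH and 3.40 and 3.33 in MEF. 4a3 lay between the 2 replicated groups without meeting either, and both lines with c-Myc and Klf4 lay with the fibroblasts. The PH mean was 10.27 ± 0.58 (SD, n = 3) and the MEF mean 3.36 ± 0.05 (SD, n = 2), a difference of 6.91 or 120-fold. Fgg in 4a3 was 3.48-fold lower than in PH and 34.6-fold higher than in MEF. In 4a3CK it was 106-fold lower and in 4a1CK 112-fold lower than in PH. On the log2 scale 4a3 minus PH 3 was -2.45, and 4a3 minus the mean of PH 1 and PH 2 was -1.47.

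Fgl1 had log2 signals of 3.88 in 4a3, 3.67 in 4a3CK and 3.78 in 4a1CK, against 10.20, 10.34 and 8.75 in PH and 4.39 and 4.32 in MEF. Every line lay below both fibroblast arrays and every hepatocyte array lay above them. The PH mean was 9.76 ± 0.88 (SD, n = 3) and the MEF mean 4.36 ± 0.05 (SD, n = 2), a difference of 5.41 or 42.4-fold. Against PH the gene was 59.2-fold lower in 4a3, 68.2-fold lower in 4a3CK and 63.3-fold lower in 4a1CK. The 3 lines spanned 0.20 and cannot be ordered. Fgl1 was also the gene of the 4 that varied most among hepatocyte arrays, with a difference of -1.52 between PH 3 and the mean of PH 1 and PH 2. The same difference was 0.98 for Fgg, 0.25 for Fgb and 0.18 for Fga.

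All 3 PH arrays lay above both MEF arrays for 4 of the 4 genes, as they did for 30.1% of all genes. The lowest values are close to the background of the array. Fga, Fgb and Fgg stood 0.10 to 0.57 above the median of the nonspecific control probe sets in MEF, as did Fgb in 4a1CK (0.33) and Fgg in 4a3CK (0.51) and 4a1CK (0.43). Fga was likewise 0.67 above it in 4a3CK and 0.57 in 4a1CK, and Fgl1 0.82 above it in 4a3, 0.64 in 4a3CK and 0.75 in 4a1CK. No detection calls are among the values used, and every fold given here against one of these low values may understate the difference. Within the accession sets, PH 3 minus MEF 2 and the mean of PH 1 and PH 2 minus MEF 1 gave 7.64 and 7.38 for Fga, 9.07 and 8.91 for Fgb, 7.60 and 6.55 for Fgg, and 4.43 and 5.88 for Fgl1. Against PH 3 and against the mean of PH 1 and PH 2, Fgb in 4a3CK differed by -1.16 and -0.91, Fga in 4a3 by -6.29 and -6.11, and Fgl1 in 4a3 by -4.88 and -6.39.

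The 3 chains, which make up one hexamer, were next set side by side in each line. In 4a3 their differences from the PH mean ran over 6.46 on the log2 scale, with Fga at -6.17 and Fgb at 0.29. In 4a3CK they ran over 6.11, with Fga at -7.11 and Fgb at -1.0. In 4a1CK they ran over 1.75, with Fgb at -8.56 and Fgg at -6.81, so all 3 were low together. Relative to MEF these ranges were 7.93 in 4a3, 7.77 in 4a3CK and 0.29 in 4a1CK. In hepatocytes the chains were all high, and the range of their differences from MEF was 2.13 in PH 1, 2.43 in PH 2 and 1.55 in PH 3. The range over the 3 chains relative to PH was 6.45 to 6.49 in 4a3, 6.10 to 6.14 in 4a3CK and 1.55 to 1.99 in 4a1CK when each PH array was left out. The chains were thus high together in PH, low together in 4a1CK and MEF, and apart from each other in 4a3 and 4a3CK.

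**Figure D2:**
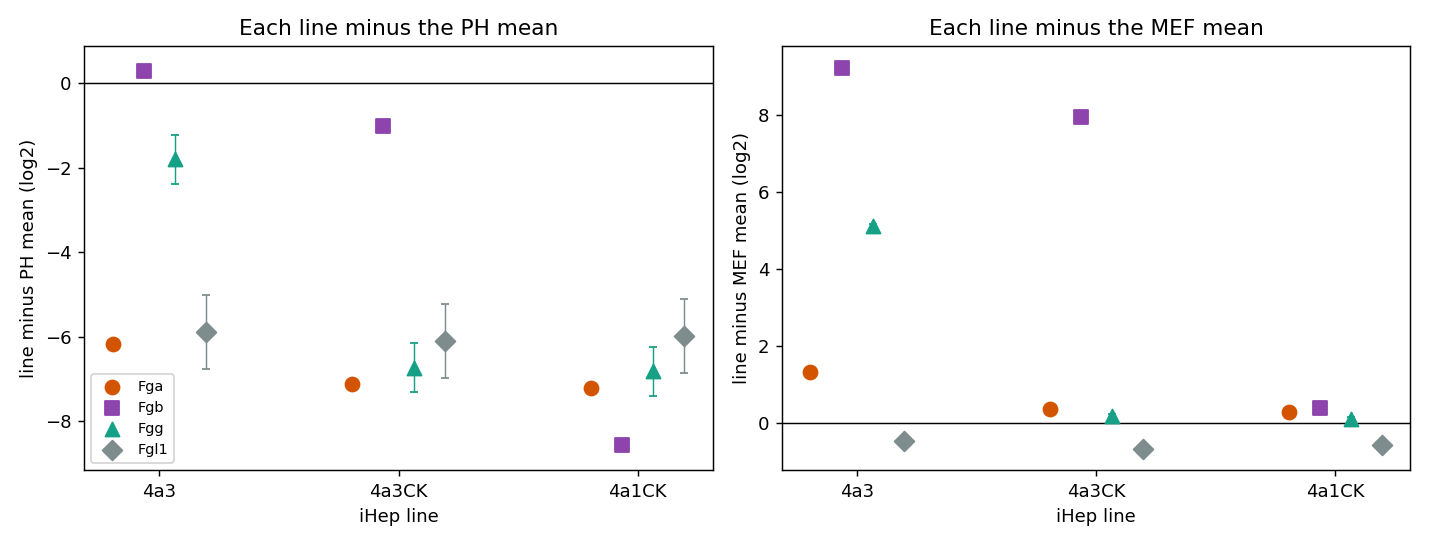
Difference of each iHep line (horizontal axis, 1 array each) from the PH mean (left) and from the MEF mean (right) on the log2 scale, with 1 symbol per gene and whiskers of ± 1 SD of the PH (n = 3) or MEF (n = 2) arrays. The chains span 6.46 in 4a3, 6.11 in 4a3CK and 1.75 in 4a1CK relative to PH.

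A log2 difference of at least 2, a 4-fold difference, was used to count genes where a line is 1 array. Against MEF, Fgb and Fgg were higher by that much in 4a3, where 2.34% of all genes were. Fgb alone was in 4a3CK, where 2.25% of genes were, and none of the 4 was in 4a1CK, where 2.28% of genes were. Against PH, Fga and Fgl1 were lower by at least 2 in 4a3, where 3.19% of genes were. In 4a3CK these were Fga, Fgg and Fgl1, with 2.58% of genes, and in 4a1CK all 4, with 2.78% of genes. The genes were chosen on these values, so nothing is read from the counts. The median difference of all genes was 0.15 to 0.16 for the lines against MEF and lay between -0.10 and -0.09 for the lines against PH.

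On a scale with the MEF mean at 0 and the PH mean at 100, Fgb stood at 103.3 in 4a3, 88.8 in 4a3CK and 4.3 in 4a1CK. Fgg stood at 74.0 in 4a3, 2.6 in 4a3CK and 1.4 in 4a1CK. Fga stood at 17.5, 4.9 and 3.6 in the same order of lines, and Fgl1 at -8.9, -12.6 and -10.7. For comparison, 105 genes were at least 4 higher in the PH mean than in the MEF mean with no overlap of arrays. Their median position was 19.9 in 4a3, 28.9 in 4a3CK and 8.2 in 4a1CK. Fga therefore lay just under that median in 4a3 and Fgb far above it in both 4a3 and 4a3CK, ranking 11 and 14 among the 105. Of the 105 genes, 23 (21.9%) came within 1 of the lowest PH array or higher in 4a3, 25 (23.8%) in 4a3CK and 17 (16.2%) in 4a1CK. Fgb was among them in 4a3 and in 4a3CK, and no other of the 4 genes was in any line.

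The lines were also compared with each other, 1 array against 1, which gives differences with no replicate check. Each set of transduced factors is 1 line, so the factors and the line cannot be told apart. Between 4a3CK and 4a3, separate lines transduced with and without c-Myc and Klf4, Fgg had a log2 difference of -4.93. This was a 30.6-fold lower level in 4a3CK and the 13th lowest of 17097 differences. The difference was -1.29 for Fgb, -0.94 for Fga and -0.20 for Fgl1. Of all genes, 0.871% were lower by at least 2 in that comparison, and Fgg was the 1 member among them. Fga and Fgb, although under that limit, ranked 626th and 388th from the lowest.

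Between 4a3CK and 4a1CK, separate lines transduced with Foxa3 and with Foxa1, Fgb was higher in 4a3CK by 7.56. This was a 189-fold difference and the 4th highest of all genes. The other members hardly differed there, with log2 differences of 0.09 for Fga, 0.08 for Fgg and -0.11 for Fgl1. A difference of at least 2 upwards was found for 1.8% of genes. Between 4a1CK and 4a3 both Fgb and Fgg were lower, among 0.684% of genes lower by at least 2. Fgb differed by -8.85, a 462-fold lower level in 4a1CK and the lowest of all 17097 differences. Fgg differed by -5.02, a 32.3-fold lower level and the 20th from the lowest, while Fga differed by -1.03 and Fgl1 by -0.10. The median over all genes was -0.02 to -0.01 in these pairs.

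**Figure D3:**
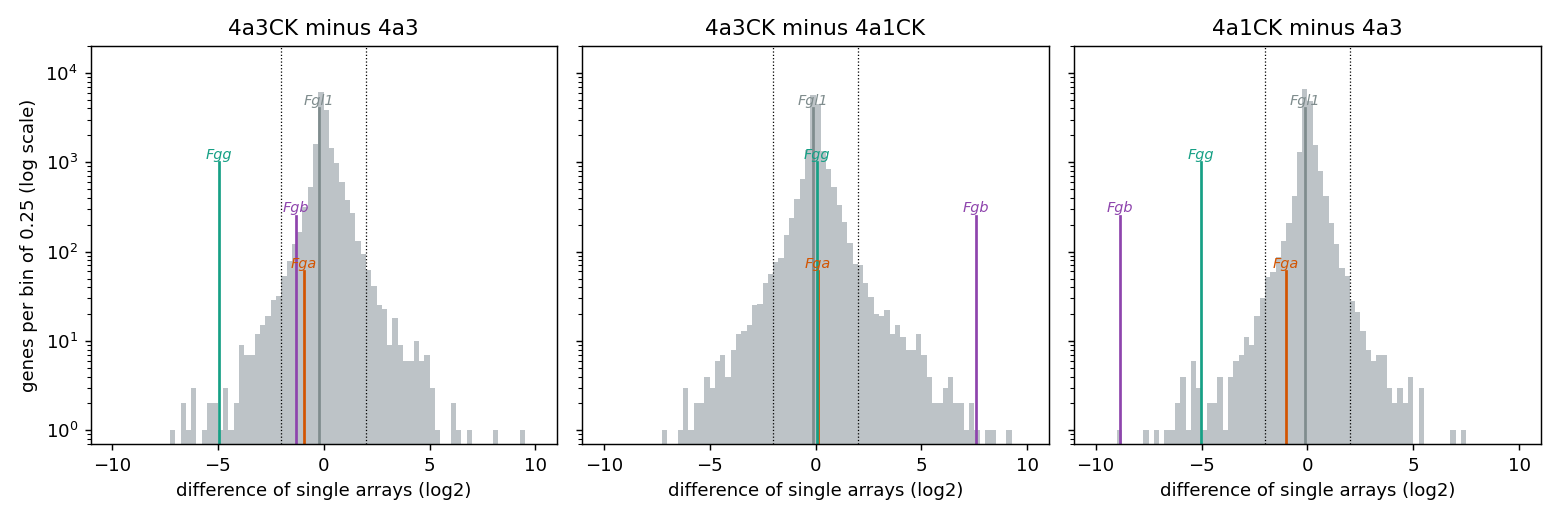
Number of genes (vertical axis, log scale) by difference between single arrays (horizontal axis, log2, bins of 0.25) for the 3 pairs of iHep lines, with the 4 genes as coloured lines whose height only separates their names and dotted lines at a difference of 2. Fgb lies at -8.85 in 4a1CK minus 4a3 and at 7.56 in 4a3CK minus 4a1CK, and Fgg at -4.93 in 4a3CK minus 4a3.

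The patterns of Fgb and Fgg over the lines were few, and the limit of 4 used to count them was chosen after their values were seen. At least 4 higher in both 4a3 and 4a3CK than in 4a1CK were 16 genes, Fgb included, of which 5 were among the 105 high in PH. At least 4 higher in 4a3 than in both other lines were 8 genes, Fgg included. Of these, 4 were among the 105, namely Fgg, the plasma protein genes Alb and Hp, and Afp, which codes for the fetal counterpart of albumin. At least 4 higher in 4a3CK than in both other lines were 33 genes, none of them a member.

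Likeness to other genes was measured as Pearson's r over the 8 arrays among 1461 genes whose highest and lowest arrays differ by at least 3. All arrays share 3 groups and the same high hepatocyte values, so r is a description and carries no p-value. The genes most like the mean of the 3 chains were Hpx (r = 0.990), which codes for the heme carrier hemopexin, Serpina1a (0.985), Gldc (0.975), Cldn2 (0.966), Alb (0.962), Sorbs2 (0.959), Sephs2 (0.956) and Afp (0.952). Those most like Fgl1 were Pzp (0.999), Ugt2b5 (0.997), Apcs (0.996), Ugt2b35 (0.994), F2 (0.992), Ambp (0.992), Cfi (0.991) and Abcc2 (0.990). The Serpina1 and Ugt2b genes have close paralogs that a probe set may not separate.

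Among the members themselves, Pearson's r over the 8 arrays was 0.691 between Fga and Fgb, 0.915 between Fga and Fgg, and 0.813 between Fgb and Fgg. Fgl1 had r = 0.972 with Fga, 0.83 with Fgg and 0.57 with Fgb. Among 1460 other genes, Fgb ranked 335th in likeness to Fga and Fgg ranked 120th, and in likeness to Fgb, Fgg ranked 52nd and Fga 156th. Taken chain by chain, a choice made after the values were seen, Fga was most like Nr1h4 (0.999), the bile acid receptor gene, and Ttr (0.998), the transthyretin gene. Fgb was most like Serpina1b (0.991) and Itih2 (0.968), and Fgg was most like Alb (0.994) and Afp (0.990). Ttr was among the 8 closest genes of both Fga and Fgg, and no other gene was shared among the 8 closest of any 2 chains. The closest gene was not fixed. Without PH 3 it was Itih2 for Fgb, Afp for Fgg and Ttr for Fga, and 5 to 7 of the 8 closest genes of each chain were the same.

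**Figure D4:**
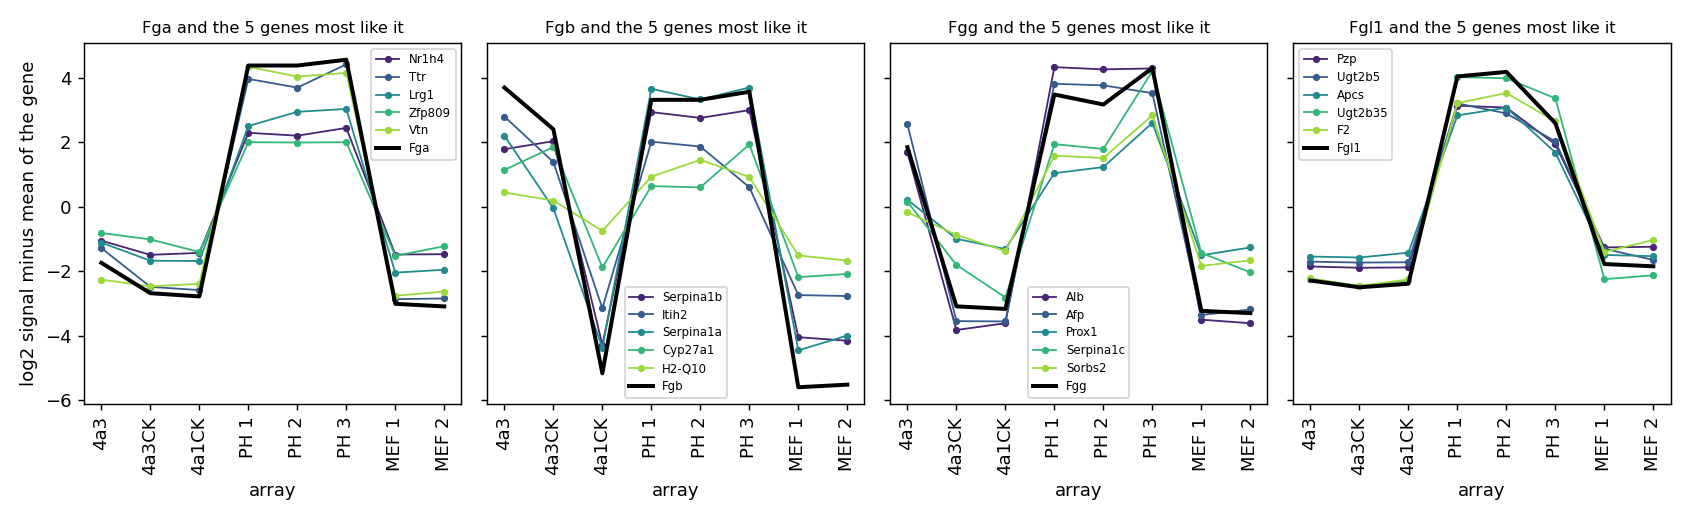
Log2 signal minus the mean of the gene over the 8 arrays (vertical axis) on each array (horizontal axis) for Fga, Fgb, Fgg and Fgl1 (black) and the 5 genes with the highest Pearson's r with each (colours); lines only join the points of a gene. The genes shown with Fgb are lower in 4a1CK and MEF than in 4a3, Alb and Afp shown with Fgg are high in 4a3 alone among the lines, and those shown with Fga and Fgl1 are low in all 3 lines.

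The genes around the members were read from RefSeq's gene order. Of the 8 measured neighbours of the fibrinogen cluster, 4 on each side, none rose in PH against MEF, where 3.37% of all genes did, so a count of 0 says little about the neighbours. Plrg1, a splicing factor gene and the nearest to Fgb, had log2 signals of 7.97 in 4a3, 8.29 in 4a3CK and 7.40 in 4a1CK, against 8.13, 7.93 and 9.18 in PH and 8.01 and 8.22 in MEF, with all 3 groups overlapping. Sfrp2, which codes for a secreted modulator of Wnt signalling, was lower than in MEF both in PH, by a log2 difference of -3.65 (limma adjusted p = 7.11e-05), and in iHep, by -3.47 (limma adjusted p = 0.00012). Tlr2, a receptor gene of innate immunity, was 2.32 higher in 4a3CK than in 4a3 and 2.17 higher than in 4a1CK.

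Of 8 measured neighbours of Fgl1, Mtus1 rose in PH against MEF by 1.52 (limma adjusted p = 0.0475). Slc7a2, a cationic amino acid transporter gene, had log2 signals of 9.49 in 4a3, 9.63 in 4a3CK and 4.78 in 4a1CK, against 9.33, 9.89 and 9.43 in PH and 8.59 and 5.45 in MEF. It was thus high in the 2 lines in which Fgb was high, while Fgl1 was low in all lines, and it passed in no comparison of groups.

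The other genes of the pathway were taken from 7 lists with 87 of 93 genes measured, written with earlier results of these arrays known. They were tested with limma over all 8 arrays in 3 groups. A gene passed at a Benjamini-Hochberg adjusted p under 0.05 over 17097 genes with a log2 difference of at least 1, a 2-fold difference. The 3 groups shared 1 estimate of the spread of a gene. Lines that differed widely raised it in PH against MEF as well, and a gene could fail to pass for that reason. In PH against MEF, 16 of the 87 rose and 3 fell, where 3.37% of all genes rose and 2.47% fell. In iHep against MEF, none rose and 6 fell, where 1.98% of all genes rose and 4.47% fell. In iHep against PH, none rose and 22 fell, where 1.49% of all genes rose and 5.64% fell. The split of higher and lower calls over all genes depended on the scaling and on PH 3. In iHep against PH, 254 rose and 965 fell as deposited, 465 and 816 with array medians subtracted, 529 and 799 after quantile normalization, and 884 and 922 without PH 3. In PH against MEF, 577 rose and 423 fell as deposited, 474 and 663 with array medians subtracted, 519 and 608 after quantile normalization, and 482 and 525 without PH 3. At an unadjusted limma p under 0.05, in either direction, 28 genes of the lists were counted in PH against MEF, 21 in iHep against MEF and 35 in iHep against PH. The share of all genes at that limit is not given here, so nothing is read from these 3 counts. The median log2 difference over the 87 genes was 0.19, 0.14 and -0.23 in these comparisons in turn, and over all genes 0.25, 0.16 and -0.09.

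Among 14 procoagulant genes, whose products lead to or act with thrombin, 5 rose in PH against MEF and 5 fell in iHep against PH, and none passed between iHep and MEF. F2, the gene of prothrombin, had log2 signals of 3.90 in 4a3, 3.66 in 4a3CK and 3.87 in 4a1CK, against 9.33, 9.64 and 8.76 in PH and 4.72 and 5.09 in MEF. It was thus low in every line, as Fga and Fgl1 were, and its log2 difference in iHep against PH was -5.43 ± 0.26 (SE, limma adjusted p = 2.56e-05). Kng1, the gene of kininogen, was 3.41 in 4a3, 7.81 in 4a3CK and 3.26 in 4a1CK, against 9.71, 9.91 and 10.32 in PH and 3.27 and 3.03 in MEF. It was raised in 4a3CK alone, a pattern none of the chains had. Kng1 rose in PH against MEF by 6.83 ± 1.17 (SE, limma adjusted p = 0.0103) and fell in iHep against PH, with a difference of -5.15 ± 1.05 (SE, limma adjusted p = 0.0217).

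The other procoagulant genes that passed in both comparisons were F5, F9 and F12, with rises of 1.89, 2.88 and 2.84 in PH against MEF. Of 9 anticoagulant genes, Serpina10, Proc and Serpind1 rose in PH against MEF by 3.43, 2.97 and 2.11. In iHep against PH these 3 fell, as did Thbd, the gene of thrombomodulin (-3.83), and Pros1, the gene of protein S (-2.08). Thbd (-2.99) and Pros1 (-2.50) also fell in iHep against MEF.

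Among 9 measured fibrinolysis genes, Serpinf2 and Plg, the genes of alpha-2-antiplasmin and plasminogen, rose in PH against MEF by 2.80 and 2.21 and fell in iHep against PH, with log2 differences of -2.96 and -1.62. Plat, which codes for tissue plasminogen activator, fell in iHep, with log2 differences of -3.16 against PH and -3.27 against MEF. Of 10 assembly and secretion genes of the endoplasmic reticulum, none rose, and Mcfd2, a cargo receptor partner for factors V and VIII, fell in iHep against PH, with a difference of -1.54 (limma adjusted p = 0.00371). The median of these 10 genes in iHep against PH was 0.25, with -0.09 over all genes.

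Of 15 measured regulators of liver genes or of the acute phase, Foxa1, Foxa2, Onecut1, Foxa3 and Cebpa rose in PH against MEF, by 4.33, 3.28, 3.17, 2.73 and 2.18, and all 5 fell in iHep against PH. Stat3, the transcription factor that interleukin 6 activates, fell in iHep, with log2 differences of -1.15 against PH (limma adjusted p = 0.0302) and of -1.29 against MEF (limma adjusted p = 0.034). With the mean of all its probe sets these differences were -0.34 (limma adjusted p = 0.504) and -0.26 (limma adjusted p = 0.622), so the fall of Stat3 rests on the probe set used. Cebpb, a C/EBP gene of the acute phase, was 11.02 in 4a3, 6.79 in 4a3CK and 10.93 in 4a1CK, against 10.39 to 10.56 in PH and 10.81 and 9.25 in MEF. Among the lines Cebpb was low in 4a3CK alone, and whether it bears on the levels of the chains was not tested. Il6ra, the interleukin 6 receptor gene, was 6.75 in 4a3, 4.76 in 4a3CK and 5.00 in 4a1CK, against 4.05, 4.16 and 5.71 in PH and 3.68 and 4.22 in MEF. Neither Cebpb nor Il6ra passed in any comparison.

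Hnf4a, one of the transduced factors of all lines, had log2 signals of 6.04 in 4a3, 9.59 in 4a3CK and 5.50 in 4a1CK, against 9.54, 9.48 and 9.78 in PH and 5.65 and 5.62 in MEF. Its limma adjusted p was 0.0585 between PH and MEF, 0.471 between iHep and MEF and 0.138 between iHep and PH, and it passed in none of them. The SD of Hnf4a was 2.22 over the lines, 0.16 in PH and 0.02 in MEF, and the fit used 1 shared spread. Its difference in PH against MEF was 3.97 ± 1.01 (SE), with no overlap of these arrays. Foxa1, transduced in 4a1CK, was 4.19 in 4a3, 3.87 in 4a3CK and 4.01 in 4a1CK, against 7.35, 7.18 and 9.47 in PH and 3.71 and 3.63 in MEF, so 4a1CK was not the highest line. Foxa3 was 3.94 in 4a3, 3.99 in 4a3CK and 3.92 in 4a1CK, against 6.17 to 6.59 in PH and 3.71 and 3.62 in MEF. Which part of a transcript these probe sets bind is not given in the sources used here, so the values do not check whether the viral factors were expressed. Among the lines only 4a3CK stood at the PH level of Hnf4a. Whether Hnf4a bears on the levels of the chains was not tested.

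**Figure D5:**
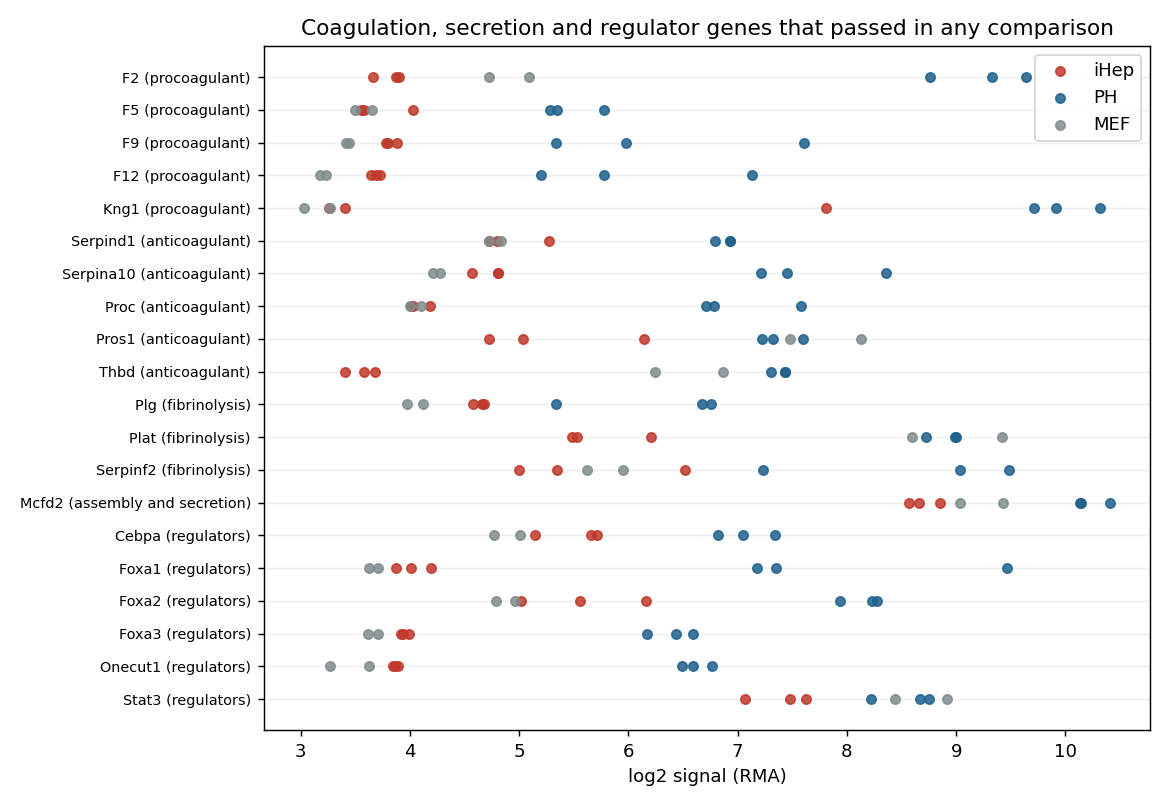
Log2 signal (RMA, horizontal axis) on each array, as 1 point per array coloured by group, of the coagulation, secretion and regulator genes (vertical axis, with their list) that passed in any of the 3 comparisons. F2 lies at 3.66 to 3.90 in the 3 lines, and Kng1 at 7.81 in 4a3CK.

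Of 16 measured genes of other proteins with a fibrinogen-like domain, Tnc, the gene of the matrix protein tenascin C, passed in all 3 comparisons, with log2 differences of -5.10 in PH against MEF, -7.18 in iHep against MEF and -2.08 in iHep against PH. Fgl2, the gene nearest to Fgl1 in name, was 3.27 in 4a3, 7.77 in 4a3CK and 3.11 in 4a1CK, against 2.94, 3.18 and 3.73 in PH and 3.59 and 3.50 in MEF. It was high in 4a3CK alone and passed in no comparison. Of 14 genes of receptors that bind fibrinogen or fibrin, Icam1 rose in PH against MEF by 2.56 and fell in iHep against PH (-3.58). The integrin genes Itgb3 and Itgb1 fell in PH against MEF (-1.31 and -1.29), and Itgb1 also fell in iHep against MEF (-1.98).

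The calls of F9, F12, Kng1, Plg, Serpinf2, Itgb1 and Itgb3 in PH against MEF were each lost without MEF 1 and without MEF 2. Over all alternative settings their highest limma adjusted p was 0.107 for F9, 0.0661 for F12, 0.133 for Kng1, 0.138 for Plg, 0.234 for Serpinf2, 0.485 for Itgb1 and 0.334 for Itgb3. In iHep against PH, calls were lost in 13 of 19 alternative settings for Plg, 12 for Stat3, 9 for Serpinf2, 7 for Kng1 and for Tnc, 3 for Pros1 and 2 for F9, in each case without PH 1 among others. All but Pros1 were also lost without 4a3, and all but Pros1 and F9 without PH 2 and without 4a1CK. Their highest adjusted p was 0.119 for Plg, 0.504 for Stat3, 0.168 for Serpinf2, 0.153 for Kng1, 0.0935 for Tnc, 0.0812 for Pros1 and 0.0672 for F9 (limma). In iHep against MEF, Stat3 was lost in 14 of 19 settings (highest adjusted p 0.622), Pros1 and Itgb1 without MEF 1 (highest 0.157 and 0.0797), and these 2 and Plat (highest 0.0667) within the first accession set. With the mean of all probe sets Itgb1 was also lost in iHep against MEF (-0.98, limma adjusted p = 0.0601). There Itgb1 and Itgb3 had differences of -0.47 and -0.70 in PH against MEF, Plat of -1.48 in iHep against MEF and -1.49 in iHep against PH, and Tnc of -4.55 in iHep against MEF and -1.08 in iHep against PH.

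The labels were checked against marker genes, as the mean log2 signal of each list. Hepatocyte markers (9 genes) stood at 7.34 in 4a3, 6.16 in 4a3CK and 5.20 in 4a1CK, against 9.05 to 9.41 in PH and 4.30 to 4.43 in MEF. Without Apoa1, left out after its values were seen, the mean of the other 8 was 6.66 in 4a3, 5.34 in 4a3CK and 4.55 in 4a1CK, against 8.90 to 9.42 in PH and 4.30 to 4.32 in MEF. The markers did not follow one pattern. Apoa1, the gene of the main protein of high-density lipoprotein, was 12.82 in 4a3, 12.66 in 4a3CK and 10.39 in 4a1CK, against 9.35 to 10.45 in PH and 5.30 and 4.29 in MEF. Alb, the gene of albumin, was 9.30 in 4a3, 3.80 in 4a3CK and 4.01 in 4a1CK, against 11.87 to 11.94 in PH and 4.01 to 4.12 in MEF. Fibroblast markers (10) stood at 3.88 to 4.41 in the lines, 4.39 to 4.42 in PH and 8.42 to 9.84 in MEF. Of these, 7 fell in iHep against MEF, where 4.47% of all genes did. Twist2 was 5.98 in 4a3, 6.79 in 4a3CK and 7.84 in 4a1CK, against 3.58 to 4.33 in PH and 9.31 and 8.43 in MEF. Col3a1 was 7.12 in 4a1CK, against 3.83 in 4a3, 3.78 in 4a3CK, 5.47 to 6.74 in PH and 12.26 and 11.84 in MEF. Macrophage markers (9) stood at 3.99 to 4.43, 4.37 to 5.10 and 5.18 to 5.43, endothelial markers (8) at 4.16 to 4.22, 3.98 to 4.88 and 3.90 to 4.06, and stellate markers (6) at 4.10 to 4.13, 4.19 to 4.67 and 4.23 to 4.76. Megakaryocyte and platelet markers (5) stood at 4.45 to 4.46, 4.14 to 4.92 and 4.92 to 5.15, and cholangiocyte markers (5) at 5.68 to 6.47, 5.86 to 6.0 and 4.82 to 5.14, always in the order iHep, PH and MEF. In the cholangiocyte list Krt19 was 10.05 in 4a3, 10.85 in 4a3CK and 10.70 in 4a1CK, against 6.32 to 8.57 in PH and 4.97 and 6.03 in MEF. The other markers of the list did not share this pattern, so its mean in the lines leans on Krt19. Sox9 was 5.39 in 4a3, 8.04 in 4a3CK and 4.33 in 4a1CK, against 7.58 to 7.96 in PH and 5.82 and 6.01 in MEF. In the lines Krt7 was 3.73 to 4.09, Epcam 6.15 to 6.76 and Cftr 3.19 to 3.20. In MEF they were 3.82 and 4.46, 6.61 and 6.33, and 2.87 and 2.88. In that list 1 gene rose in iHep against MEF, where 1.98% of all genes did, and none fell. The part of such cell types in the levels of the 4 genes was not tested.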

How the data were processed

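The values are log2 signals per probe set, deposited by the authors and made by robust multi-array averaging (RMA) in Partek, per the submitters' processing notes, with versions, probe annotation and build not given in the sources used here. They were used as deposited. Of 45141 probe sets, 28898 carried 1 gene symbol, and where a gene had several, the one with the highest mean signal stood for it. Arrays have no sequencing depth, and their number limits the precision. PH without a number in its title is called PH 3.

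Members and gene lists were chosen with earlier results of these data known. Named were the members, up to 4 passing genes a list and comparison, direct regulators of fibrinogen, and the 8 genes most like the chain mean and Fgl1. Some list genes had no probe set here and are not reported.

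A model with the groups iHep, PH and MEF was fitted to 17097 genes with limma 3.58.1 in R 4.3.3, two-sided, with 5 residual degrees of freedom and Benjamini-Hochberg adjustment. The fit was run on simulated data to check that it returned differences put into them. Those data had independent arrays, no offset of PH 3 and the same spread in every group, so they do not check the calls here. Python 3.11.15 (with pandas 2.3.3, numpy 2.4.6 and matplotlib 3.10.9) made the tables and plots. Between MEF 1 minus MEF 2 and PH 1 minus PH 2, Pearson's r over genes was -0.197. The 2 MEF arrays lie in different accession sets, while PH 1 and PH 2 lie in the same set and hardly differ. This r therefore cannot decide whether replicate numbers pair MEF with PH. RefSeq symbols and gene order came from GRCm38.p6. Alternatives were other scalings, probe set choices, filters, variance models, blocks, accession sets and leaving out each array.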

Additional observations from a re-analysis of the deposited data

How the results depend on the processing

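Of 572 recomputed values of the 4 genes, 276 could not move, because each gene has a single probe set or because the arrays left out or averaged were not in the difference. Of the 296 that could, 233 moved by less than the spread between replicates and 63 by more, and the 2 that changed sign were both Fgg in 4a1CK minus MEF, at 0.10 as deposited, -0.10 with array medians subtracted and -0.07 after quantile normalization. The mean over the 3 lines rested on single lines for Fgb, whose iHep minus PH difference of -3.09 became -0.35 without 4a1CK and -4.78 without 4a3, and for Fgg, whose iHep minus MEF difference of 1.80 became 0.14 without 4a3. The range over the 3 chains relative to PH lay between 6.23 and 6.49 in 4a3, 5.98 and 6.22 in 4a3CK, and 1.40 and 1.99 in 4a1CK over all alternatives. Several of these could not change the range, as each chain has a single probe set, array medians cancel within an array and MEF is not in it. None replaces the 1 array of a line, so the range has no replicate check.

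Pathway genes that fell in PH against MEF, 3 in all, came to 1 with the mean of all probe sets, with PH 1 and PH 2 averaged, with each line as its own group, with only the compared groups and within the first accession set, and to 13 within the second. Those that rose, 16, came to 29 within the first accession set. Against none as reported, 1 pathway gene rose in iHep against PH with array medians subtracted or quantile normalization and 3 with each line as its own group, and in iHep against MEF 2 rose with each line as its own group and 1 with only the compared groups. Without single arrays, 1 to 3 fell and 11 to 17 rose in PH against MEF, 0 to 1 rose and 3 to 8 fell in iHep against MEF (3 without MEF 1), and 0 to 2 rose in iHep against PH. Under every alternative, 11 of 19 calls in PH against MEF, 2 of 6 in iHep against MEF (Thbd and Tnc) and 15 of 22 in iHep against PH were kept; the cause of the other losses was not tested.

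Over all genes, 1000 passed in PH against MEF, 1103 in iHep against MEF and 1219 in iHep against PH. Within the first accession set PH and MEF are 1 array each, and the spread comes from the 3 different lines. Within the second set, and without MEF 1 or MEF 2, MEF is 1 array. Counts over all genes under these settings are therefore not given. The splits under other scalings and without PH 3 stand beside the reported ones. In iHep against PH the count was 588 with PH 1 and PH 2 averaged, 604 without 4a3, 576 without PH 1 and 610 without PH 2. In iHep against MEF it was 564 without 4a3 and 1874 without PH 3.

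With replicate number as a block for PH against MEF, the differences were 7.42 for Fga, 8.86 for Fgb, 6.59 for Fgg and 5.91 for Fgl1. Number 3 occurs in PH alone, so the block takes PH 3 out of the difference, and these values equal those without PH 3. Few arrays are then left to estimate the spread, also under the crossed pairing below. In this fit 16 pathway genes rose and 3 fell, with 17 of the 19 calls kept (Icam1 and Itgb3 lost) and 900 genes called in all. A crossed pairing, chosen after seeing the data, gave 1307 genes and kept all 19 calls. MEF and PH share only the numbers 1 and 2, with no statement that they mark a common source.

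Of the 8 genes most like the chain mean, 6 to 7 were kept over the alternatives, and of those most like a single member 5 to 8, with Hpx first for the chain mean and Pzp first for Fgl1 in each. The closest gene to Fga was Ttr with array medians subtracted and without PH 3, that to Fgb was Itih2 without PH 3, and that to Fgg was Afp with the mean of all probe sets and without PH 3.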
